A study of Mus musculus with 48 samples.

Results

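The genes described here are 10 antioxidant and Nrf2 target genes, Nqo1, Gclm, Gclc, Txnrd1, Srxn1, Prdx1, Prdx2, Gpx1, Cat and Blvrb, out of 24062 genes in the deposited table of raw counts. They were found by symbol, and all 10 are in the table. The set was proposed by a rule that selected genes on measured values of these same cells, their level per cell and their relation to Gata1, Klf1 and Car2. Those values are therefore given as a description, with no test.

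Cells that consume oxygen and handle iron and heme form peroxides and reactive quinones, and they hold enzymes that remove them. Nrf2, the product of Nfe2l2, is held in check by Keap1 and, once released, binds antioxidant response elements together with small Maf proteins, while Bach1 represses genes at the same elements. Red cell precursors build up heme and hemoglobin and are known for high levels of peroxiredoxins, catalase and glutathione peroxidase, which protect the mature red cell.

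Single-cell RNA sequencing covered 48 cells of mouse fetal liver, all in the group BFU-E, the burst-forming progenitors at the start of the committed red cell lineage. The cells came from embryonic day 14.5, were negative for a panel of lineage surface markers, positive for c-Kit and within the lowest 10% for CD71, the transferrin receptor. The labels name no genotype, treatment or separate animal, chip or batch for these cells, so the 48 cells count as 1 sample. No test between groups was possible, and all statements below compare cells of that sample.

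The 48 cells held between 246007 and 3211186 counted reads each, on average 1937297 ± 674844 (SD), and 5180 to 7935 genes were read in a cell. Levels are given as CPM, counts scaled to a common library total with TMM factors, and 1 molecule amplified many times gives many reads, so intervals cover counting error only. In 2 cells the summed level of the macrophage complement genes C1qa, C1qb and C1qc was 15715 and 9314 CPM, against 381 CPM in the next cell and 6.86 CPM in the one after it. These 2 cells, called macrophage-like, had 8 and 9 of 9 macrophage markers read and 7.33 and 2.08 CPM of Gata1, and they are given apart. The next cells by C1q level, which were not set apart, had 7 and 6 of these markers read, so the split rests on the C1q level. The other 46 cells carry the results, and they go against a uniform BFU-E label. Gata1, the master transcription factor of red cell genes, reached at least 10 CPM in 28 of them and stayed below in 18, and the 12 neutrophil and monocyte precursor markers were all at least 2-fold lower in the Gata1 cells. Their summed level had a median of 106 CPM (lowest 7.28, highest 8346) in the 28 Gata1 cells, against 7350 CPM (lowest 25, highest 85825) in the 18 cells below the Gata1 limit. Of 8600 genes past a filter on low values, 19.7% were at least 2-fold lower in the Gata1 cells. Whether these markers have a part in any difference across the Gata1 limit was not tested.

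The stretches just upstream of 5 of the genes show how the sequences that Nrf2, GATA factors and Klf1 are known to recognise are spread over them. They are shown because Gclm and Blvrb had the closest relation to the erythroid genes, Prdx1 and Prdx2 were read in every cell, and Srxn1 was nearly silent. The sequences are from RefSeq, build GRCm38.p6, and run 5′ to 3′ on the gene's strand up to the base before the annotated start. Capitals mark matches, on either strand, to the antioxidant response element core TGACNNNGC, the NF-E2 and AP-1 core TGACTCA, the GATA core GATAA or the CACCC box CCNCNCCC.
Gclm, chr3:122245307-122245556, plus strand: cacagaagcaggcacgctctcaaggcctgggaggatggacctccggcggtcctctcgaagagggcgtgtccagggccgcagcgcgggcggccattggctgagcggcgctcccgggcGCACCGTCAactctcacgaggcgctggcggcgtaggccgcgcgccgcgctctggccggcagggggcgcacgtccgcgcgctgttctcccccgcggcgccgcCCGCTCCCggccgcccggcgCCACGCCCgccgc
Prdx1, chr4:116685349-116685543, plus strand: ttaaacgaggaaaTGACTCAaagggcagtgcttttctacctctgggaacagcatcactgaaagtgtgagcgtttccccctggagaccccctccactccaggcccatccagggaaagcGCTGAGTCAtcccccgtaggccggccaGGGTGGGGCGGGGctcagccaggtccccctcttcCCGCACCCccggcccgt
Srxn1, chr2:152105274-152105515, plus strand: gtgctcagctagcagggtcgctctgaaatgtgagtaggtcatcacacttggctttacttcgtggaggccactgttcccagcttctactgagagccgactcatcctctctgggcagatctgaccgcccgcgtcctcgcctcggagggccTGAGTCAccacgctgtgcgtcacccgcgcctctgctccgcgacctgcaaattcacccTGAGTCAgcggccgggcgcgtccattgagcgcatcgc
Blvrb, chr7:27447728-27447977, plus strand: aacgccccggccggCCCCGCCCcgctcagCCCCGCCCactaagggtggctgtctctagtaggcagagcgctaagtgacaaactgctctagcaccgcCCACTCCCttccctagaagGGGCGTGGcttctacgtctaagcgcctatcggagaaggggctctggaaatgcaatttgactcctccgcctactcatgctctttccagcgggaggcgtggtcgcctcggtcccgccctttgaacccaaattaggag
Prdx2, chr8:84969372-84969586, plus strand: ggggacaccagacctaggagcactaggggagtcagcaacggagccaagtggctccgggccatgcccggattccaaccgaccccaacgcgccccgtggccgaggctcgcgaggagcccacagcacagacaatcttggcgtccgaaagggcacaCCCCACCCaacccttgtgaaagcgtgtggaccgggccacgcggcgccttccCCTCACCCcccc

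Distances are counted back from the end of the printed stretch to the first base of the match. Gclm held 1 antioxidant response element core at 134 bases and 2 CCNCNCCC matches. Prdx1 held 1 such core at 78 bases, where it overlaps one of its 2 TGACTCA matches, and 3 CCNCNCCC matches. Srxn1 held 2 TGACTCA matches, at 94 and 37 bases, and no match to TGACNNNGC in this window. At the Blvrb start site printed here all 4 matches, and in Prdx2 both, were to CCNCNCCC, which GC-rich stretches also match, and the window of the second Blvrb start site held none. Of the genes not printed, Txnrd1 held 1 antioxidant response element core, 1 GATAA match and 2 CCNCNCCC matches at the second of its 3 start sites and none at the others. No match lay in the window of Gpx1, while the windows of Nqo1 and Cat held matches to CCNCNCCC alone. Among 32851 promoter windows of the same 250 bases, 10.2% held TGACNNNGC, 4.46% TGACTCA, 22.6% GATAA and 45.9% CCNCNCCC. No entry for Gclc was in the promoter table.

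The 10 genes fell into those read in every cell and those read in some. Compared per length of their exons, Gpx1 had the highest level with a mean of 1733 CPM per kilobase, followed by Prdx1 with 260 and Prdx2 with 220. Cat followed with 66.0 CPM per kilobase and Blvrb with 46. Txnrd1, Gclc, Nqo1 and Gclm lay close together at 10.5, 9.50, 7.75 and 4.79 CPM per kilobase, with SDs over cells larger than their means, and Srxn1 was lowest at 1.11. The order of Prdx1 and Prdx2, and that of the 4 low genes, rests on differences smaller than their spread over cells.

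**Figure D1:**
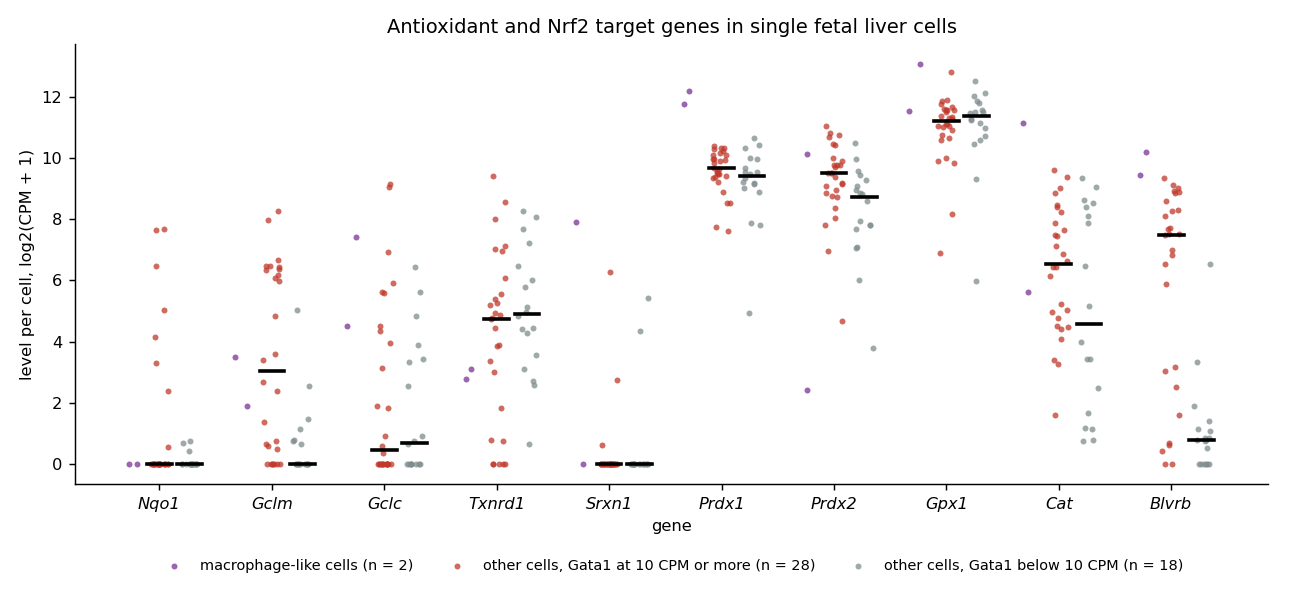
Level of each of the 10 genes in every cell, as log2(CPM + 1), with 1 point per cell and a black bar at the median for macrophage-like cells (n = 2, no bar), Gata1 cells (n = 28) and cells below 10 CPM of Gata1 (n = 18). Prdx1, Prdx2 and Gpx1 lie high in nearly all cells, while Gclm and Blvrb have most of their high cells in the Gata1 set. Heights of different genes are not per length.

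The quinone reductase and the genes of glutathione synthesis were below 10 CPM in most cells. Nqo1, the NAD(P)H quinone reductase often used as a readout of Nrf2, had a lowest and a median level of 0 and a highest of 203 CPM over the 46 cells. Reads were found in 11 cells, of which 5 passed 10 CPM, at 203, 199, 87.9, 31.7 and 16.7 CPM, which made up 97.3% of its summed level. Gclc, the catalytic subunit of glutamate-cysteine ligase, the rate-limiting enzyme of glutathione synthesis, ranged over 0 to 565 CPM with a median of 0.530. It was read in 25 of 46 cells and reached 10 CPM in 13, and its 5 highest cells held 82.9% of its summed level. Gclm, the modifier subunit of the same enzyme, ranged over 0 to 307 CPM with a median of 0.678, and 14 of its 28 cells with a read passed 10 CPM.

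The subunits of glutamate-cysteine ligase overlapped in part of their cells. Both Gclm and Gclc reached 10 CPM in 5 cells, Gclm alone in 9, Gclc alone in 8 and neither in 24. Their rank correlation over the 46 cells was 0.20.

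Txnrd1, the cytosolic thioredoxin reductase that keeps thioredoxin reduced, was broader. It was read in 41 of 46 cells, with a lowest of 0, a median of 26.9 and a highest of 684 CPM, and it reached 10 CPM in 32. Srxn1, sulfiredoxin, which restores overoxidised peroxiredoxins, was read in 5 of 46 cells (10.9%, exact Clopper-Pearson 95% interval 3.62 to 23.6%). Its 3 cells above 10 CPM had 76.4, 41.8 and 19.5 CPM, and the other 43 lay below. Srxn1 missed the filter on low values, set at reads in 10 or more cells plus an average of 5 CPM, so counts over the filtered genes below concern 9 of the 10.

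The peroxide-removing enzymes made up the high end. Prdx1 and Prdx2, peroxiredoxins of the cytosol, and Gpx1, the cytosolic glutathione peroxidase, were read in 46 of 46 cells and stood above 10 CPM in all of them. Prdx1 averaged 790 ± 359 CPM (SD, n = 46 cells) with a lowest of 29.7, a median of 743 and a highest of 1615. Prdx2, among the most abundant proteins of the mature red cell, averaged 670 ± 499 CPM with a lowest of 13, a median of 553 and a highest of 2090. Gpx1 averaged 2498 ± 1343 CPM with a lowest of 61.7, a median of 2460 and a highest of 7102. The lowest cell of each of these genes was far below its lower quartile, which was 580, 280 and 1702 CPM for Prdx1, Prdx2 and Gpx1. The lowest Prdx1 and Gpx1 levels were in the same cell, which held only 507732 reads. The lowest Prdx2 level was in a cell of 2214137 reads. Whether depth had a part in these low values was not tested.

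Cat and Blvrb sat between these groups. Cat, catalase, was read in all 46 cells but over a wide range, with a lowest of 0.673, a median of 85.1 and a highest of 769 CPM, and 35 cells reached 10 CPM. Blvrb, biliverdin reductase B, a flavin and biliverdin reductase known from red cells, had a lowest of 0, a median of 6.04 and a highest of 644 CPM. Blvrb reached 10 CPM in 20 cells and stayed below in 26, and 17 of the 20 were above 100 CPM. The split depends on the limit, since 63.0% of the cells reached 1 CPM of Blvrb, against 43.5% at 10 CPM.

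Set against genes of similar mean level, these genes varied neither all more nor all less from cell to cell. The squared coefficient of variation, divided by the trend over 8601 genes, was highest for Gpx1 at 1.73, Gclc at 1.60 and Nqo1 at 1.28. It was lowest for Prdx1 at 0.478 and Gclm at 0.634. Of all filtered genes, 19.8% varied more than Gpx1 relative to the trend and 84.5% more than Prdx1.

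The macrophage-like cells differed from the 46 others in the level of several of these enzymes. Prdx1 stood at 3474 and 4632 CPM in the macrophage-like cells, against a highest of 1615 CPM in the other 46. Blvrb stood at 688 and 1154 CPM, also above the highest of the 46, 644 CPM. Both genes were thus higher in both macrophage-like cells than in any other cell.

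Several other genes differed between the macrophage-like cells themselves. Cat was at 2229 and 47.7 CPM, Srxn1 at 239 and 0, Gpx1 at 8552 and 2970 and Prdx2 at 4.40 and 1124. Hmox1, heme oxygenase, which breaks down heme and is an Nrf2 target, was at 17680 and 145 CPM in the same cells, against a highest of 474 CPM in the other 46. That highest cell was the one with the next highest C1q level. It was a Gata1 cell with 336 CPM of Gata1, and it also held the highest Gclm level of all, 307 CPM. Txnrd1 was low in both macrophage-like cells, at 5.87 and 7.61 CPM, and Nqo1 was at 0 in both.

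Gata1, Klf1 and Car2 split the 46 cells in related ways. Klf1, the erythroid Krüppel-like factor, reached 10 CPM in 16 cells, all of which were Gata1 cells, so 12 cells had Gata1 without Klf1 and 18 had neither. Cells in the last 2 sets were below 10 CPM of Klf1 but can hold reads of it. Car2, carbonic anhydrase 2, reached its limit of 100 CPM in 27 cells, of which 23 were Gata1 cells. Because these splits share most of their cells, values across them are 3 overlapping views of the same cells and not separate observations. Gata1 cells had a mean total count of 2047585, against 1751856 in the cells below the limit, and 6841 genes read, against 6742.

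By rank, Blvrb followed Gata1 more closely than any other of these genes. Its level ranged over 0 to 644 CPM with a median of 179 in the 28 Gata1 cells, against 0 to 92.2 CPM with a median of 0.725 in the 18 cells below the limit. The means were 206 ± 202 and 6.24 ± 21.6 CPM (SD over cells, n = 28 and 18), a 33-fold difference or 5.05 on the log2 scale. The size depends on where the cells are split, with a log2 fold of 8.04 at a Gata1 limit of 1 CPM and 2.15 at 100 CPM. Blvrb reached 10 CPM in 19 of 28 Gata1 cells (67.9%), against 1 of 18 cells below the limit (5.56%). The ranges overlapped, since 9 Gata1 cells also stayed below 10 CPM of Blvrb, and 8 of these 9 were below 10 CPM of Klf1. The summed reads were 12868 in Gata1 cells and 175 in the others. Reads can be copies of 1 molecule, so these sums do not count molecules. The mean of 6.24 CPM below the limit, and with it the fold, rests mainly on the 1 cell at 92.2 CPM.

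Within the Gata1 cells, Blvrb went with Klf1. It averaged 288 ± 175 CPM in the 16 cells with Gata1 and Klf1, 97 ± 188 CPM in the 12 with Gata1 alone and 6.24 ± 21.6 CPM in the 18 with neither. It reached 10 CPM in 15 of 16, 4 of 12 and 1 of 18 of these cells. The 12 cells with Gata1 alone had a median of 4.67 CPM of Blvrb. Their highest, 644 CPM, was in a cell with 5.90 CPM of Klf1, and a cell at 207 CPM had 8.10 CPM of Klf1. Over the 28 Gata1 cells alone, a set chosen after seeing the data, the rank correlation of Blvrb was 0.55 with Klf1 and 0.37 with Gata1.

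Gclm followed the same order at a lower level. It had a median of 7.48 and a highest of 307 CPM in Gata1 cells, against 0 and 31.6 CPM in cells below the limit, with a lowest of 0 in both. The means were 48 ± 75.4 and 2.30 ± 7.41 CPM, a 20.8-fold difference, and 13 of 28 Gata1 cells reached 10 CPM, against 1 of 18 others. This log2 fold of 4.38 was 6.61 at a Gata1 limit of 1 CPM, 2.00 at 100 CPM, 6.30 without the 5 cells of lowest total and 2.67 as a difference of mean log2(CPM + 1). Over the Gata1 cells alone the rank correlation of Gclm was 0.21 with Gata1 and 0.31 with Klf1. With Gata1 and Klf1 the mean was 69.2 CPM, with Gata1 alone 19.6 and with neither 2.30. As the last mean is below 5 CPM, Gclm passed the filter on low values through the Gata1 cells. The exons of Gclm overlap 2 other annotated genes, Gm17494 and Gm6061, over 540 bases. The library kit does not mark the strand, so reads there cannot be assigned between them.

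Nqo1 had all of its 5 cells above 10 CPM among the Gata1 cells. It averaged 19.7 ± 54.1 CPM in Gata1 cells and 0.0913 ± 0.218 CPM in the others, with 1227 reads in the 28 Gata1 cells, against 3 in the 18 others. Its mean passed the filter on low values through the Gata1 cells. Since 20 of the 28 Gata1 cells held no read of Nqo1, the difference is one of a few cells and not of the set. All 5 cells also had Blvrb above 10 CPM, and 4 of them Gclm.

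**Figure D2:**
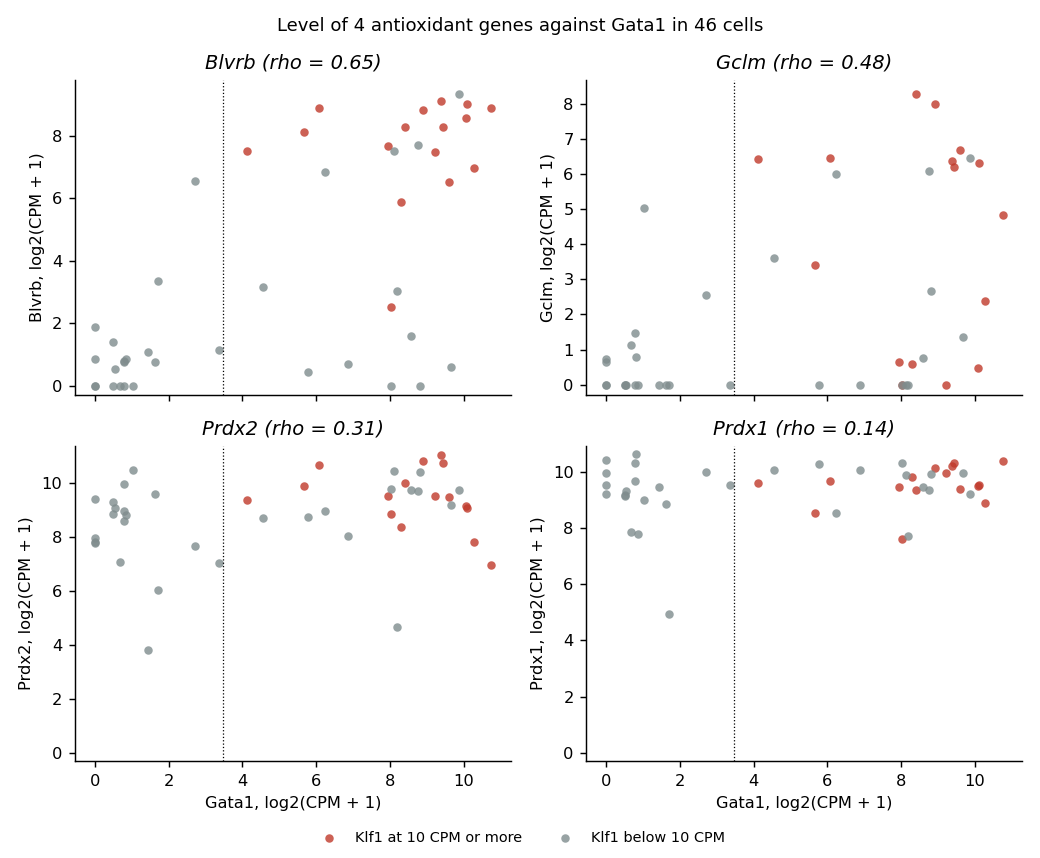
Level of Blvrb, Gclm, Prdx2 and Prdx1 against Gata1 in the 46 cells, both axes as log2(CPM + 1), with 1 point per cell coloured red for Klf1 at 10 CPM or more and grey below it, and a dotted line at 10 CPM of Gata1. Blvrb and Gclm are low left of the line apart from 1 cell each at 10 CPM or more, while the Prdx1 levels overlap on both sides.

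Prdx2 was read on both sides of the limit with overlapping ranges. It averaged 812 ± 530 CPM (lowest 24.3, median 722, highest 2090) in Gata1 cells, against 448 ± 360 CPM (lowest 13, median 419, highest 1434) in the others, a 1.81-fold difference within the spread over cells. Over the Gata1 cells alone its rank correlation with Gata1 was 0.0049. Prdx2 exons overlap Junb and Rnaseh2a on the other strand over 350 bases.

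For Gclc the mean and the median pointed in opposite directions. The mean was 51.6 ± 143 CPM in Gata1 cells, against 11.2 ± 22.4 CPM in the others, a 4.62-fold difference or 2.21 on the log2 scale, against 0.48 as a difference of mean log2(CPM + 1). The medians were 0.394 and 0.620 CPM, and 9 of 28 Gata1 cells, against 4 of 18 others, reached 10 CPM. The higher mean came with 2 cells at 565 and 533 CPM, both in the Gata1 and Klf1 set.

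The remaining peroxide enzymes had similar means on both sides. Prdx1 averaged 828 ± 323 CPM in Gata1 cells and 730 ± 410 CPM in the others. Gpx1 averaged 2404 ± 1333 CPM and 2644 ± 1383 CPM in the same order, Txnrd1 75.7 ± 147 and 72.9 ± 94.8, and Cat 178 ± 208 and 163 ± 211. These differences are far smaller than the SDs over cells, and the log2 fold of each turned its sign under at least 1 alternative. For Cat the medians lay further apart, 91.6 CPM in Gata1 cells and 24.7 CPM in the others, with 25 of 28 Gata1 cells at 10 CPM or more, against 10 of 18 others.

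Counted over the 9 filtered genes, 4 (Nqo1, Gclm, Gclc and Blvrb) had a mean at least 2-fold higher in Gata1 cells, and 4 each likewise in Klf1 and Car2 cells. None was 2-fold lower. Over all filtered genes other than the splitting gene, 22.7% were at least 2-fold higher across the Gata1 limit, 16% across the Klf1 limit and 21.2% across the Car2 limit, and 19.7%, 25.2% and 20.5% were at least 2-fold lower. The median fold of the 9 genes was 1.81, 1.63 and 1.69 across Gata1, Klf1 and Car2, against 1.05, 0.937 and 0.999 over all genes. Since the rule chose the genes for this relation, nothing is read from these counts.

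By rank over the 46 cells, Blvrb had a Spearman correlation of 0.65 with Gata1, 0.69 with Klf1 and 0.58 with Car2. Of 8600 genes, 0.0930%, 0.0233% and 0.140% ranked higher than Blvrb with Gata1, Klf1 and Car2. Since the rule chose the genes for this relation, nothing is read from these shares. Gclm had correlations of 0.48, 0.49 and 0.37. Prdx2 followed with 0.31, 0.32 and 0.29, inside the central 95% of all genes. Nqo1 had 0.19, 0.20 and 0.29, and Cat had 0.15, 0.02 and 0.33.

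Prdx1, Gpx1, Gclc and Txnrd1 lay between -0.08 and 0.14 with each of the 3 genes, apart from Gpx1 with Car2 at -0.23. Gpx1 was also the one member that went with Mpo, myeloperoxidase of neutrophil precursors, at 0.42, where Blvrb had -0.66 and Gclm -0.37. Mpo itself averaged 628 ± 1857 CPM in Gata1 cells and 12194 ± 14595 CPM in the others.

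A correlation of at least 0.4 was held by 2 of the 9 genes with Gata1, 2 with Klf1 and 1 with Car2, and none had -0.4 or less. Of all 8600 genes, 1.74%, 1.83% and 1.58% reached 0.4 with Gata1, Klf1 and Car2, and 2.17%, 2.15% and 1.97% reached -0.4. The median over the 9 genes was 0.153, 0.0487 and 0.288, against 0.0150, 0.0134 and 0.0247 over all genes. The cells share 1 sample and differ in depth, so these are descriptions without a p. The rule chose the genes for this relation, and Gclm and Nqo1 passed the filter through the Gata1 cells. Nothing is therefore read from these counts and medians.

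**Figure D3:**
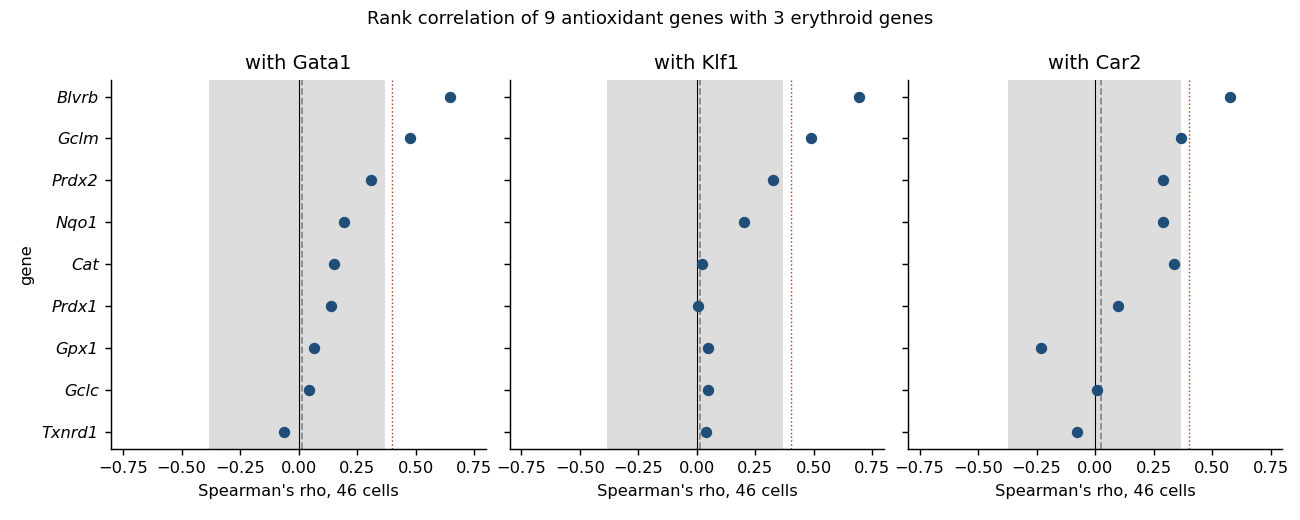
Spearman correlation of the 9 filtered genes with Gata1, Klf1 and Car2 over 46 cells, with a grey band over the central 95% of 8600 genes, a dashed line at their median and a red dotted line at 0.4. Blvrb lies beyond the band in all 3 panels and Gclm beyond the 0.4 line in 2, while the other 7 genes lie within the band.

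Among themselves the genes formed no single block. Of 36 pairs, 26 had a positive correlation, with a median of 0.104, a lowest of -0.19 and a highest of 0.57. Of these pairs, 5 reached 0.4, which is 13.9% of pairs, against 0.580% of all pairs of filtered genes, whose median was 0.0140. They were Gclm with Blvrb at 0.57, Gclm with Prdx2 at 0.44, Nqo1 with Blvrb at 0.44, Nqo1 with Gclm at 0.43 and Prdx1 with Gpx1 at 0.41. The genes were chosen for their relation to the same 3 genes, so all pairs are not a like background. Nothing is read from the share of pairs. The pairs with Nqo1 rest on a gene with no read in 35 of the 46 cells. With DESeq2 size factors 3 pairs reached 0.4. Gclm and Blvrb both reached 10 CPM in 12 cells, Blvrb alone in 8, Gclm alone in 2 and neither in 24.

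**Figure D4:**
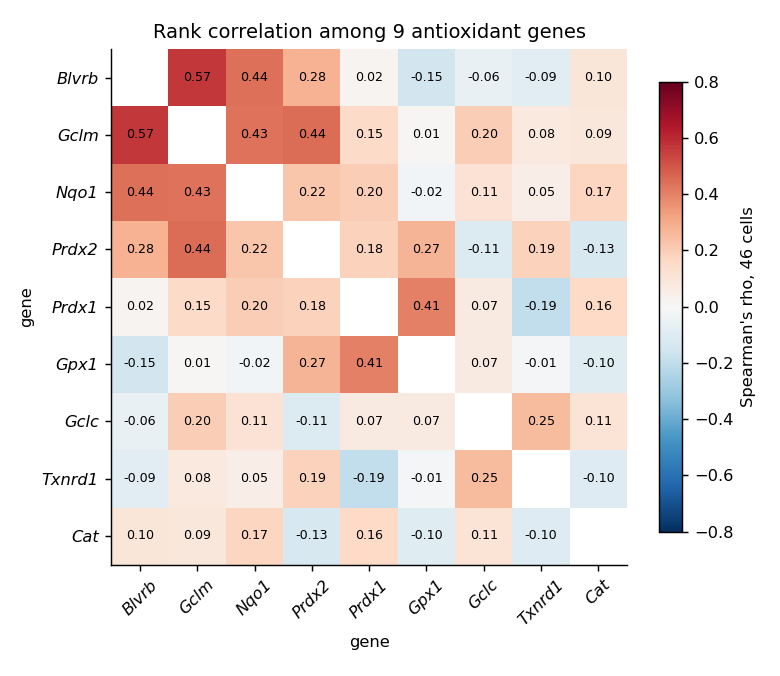
Spearman correlation of each pair of the 9 filtered genes over 46 cells, with red for positive and blue for negative values and the value in each cell of the map. Blvrb, Gclm and Nqo1 form a positive corner, from 0.43 to 0.57, while Gclc, Txnrd1 and Cat stay between -0.19 and 0.25 with every other gene.

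The genes most like each member by rank over the 46 cells were, for Blvrb, Ermap at 0.78, Snord52 at 0.72 and the unnamed gene model Gm15915 at 0.72. Ermap encodes a red cell membrane protein. Gclm was closest to Add1 at 0.62, Fam53c at 0.62 and Ephx2 at 0.59, and Add1 encodes adducin of the membrane skeleton. Nqo1 was closest to Pklr, the pyruvate kinase of red cells and liver, at 0.59, then Fbxl14 at 0.56 and Icam4, a red cell adhesion molecule, at 0.55. These neighbours differed in their own correlation with Gata1, from 0.0032 for Fbxl14 to 0.67 for Gm15915. Nqo1 was read in 11, Pklr in 13 and Ephx2 in 10 of the 46 cells, so their ranks rest largely on cells without a read.

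The nearest genes of the remaining filtered genes are given next. Prdx1 was closest to Pcnp at 0.59, the ribosomal protein gene Rpl23a at 0.58 and the mitochondrial ribosomal protein gene Mrpl21 at 0.56. Gpx1 was closest to S100a11 at 0.65, Krtcap2 at 0.63 and Cox5a, a subunit of cytochrome oxidase, at 0.57. Gclc was closest to the polyubiquitin gene Ubb at 0.63, Gm1821 at 0.62 and Parg at 0.59. For Prdx2, Ell2 at 0.58 and Lrrc40 at 0.56 were the nearest 2. Cat was nearest to Pin4 at 0.60, Ago1 at 0.58 and 9430008C03Rik at 0.56. Txnrd1 had the most distant neighbours, Fcna at 0.55, Ctss at 0.53 and Lsm8 at 0.50. Fcna and Ctss had means of 1.33 and 3.01 CPM over the 46 cells, below the 5 CPM of the filter. Both passed it only with the macrophage-like cells counted.

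The regulators of the pathway ranged widely in level. Nfe2l2, which encodes Nrf2, averaged 126 ± 147 CPM in Gata1 cells and 53.7 ± 103 CPM in the others, with a rank correlation of 0.25 with Gata1. Nfe2, the erythroid relative of Nrf2 that binds similar elements, averaged 196 ± 200 and 77.0 ± 142 CPM, with a correlation of 0.34. Keap1, the adaptor that targets Nrf2 for degradation, averaged 13.7 ± 25.7 and 13.9 ± 32.5 CPM. Bach1 averaged 47.2 ± 124 and 17.9 ± 41.9 CPM, but its medians were 0.203 and 1.82 CPM. Of the genes for small Maf proteins, the partners of Nrf2, Mafg averaged 21.9 CPM over the 46 cells with a median of 0.670, Mafk 3.11 CPM with a median of 0, and Maff 0.670 CPM with reads in 3 cells. Bach2, a relative of Bach1, averaged 4.85 CPM. None of the 10 regulators past the filter, out of 11 listed, reached 0.4 or -0.4 with Gata1, Klf1 or Car2. Mafk and Bach2, below 5 CPM on average over the 46 cells, passed the filter only with the macrophage-like cells counted.

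Of 70 further genes of the pathway, 54 passed the filter. With Gata1, 4 of the 54 had at least 0.4 and 4 had -0.4 or less, with a median of 0.0414. With Klf1 the counts were 5 and 3, and with Car2 they were 6 and 2. The shares at 0.4 or more were 7.41%, 9.26% and 11.1% of the 54 for Gata1, Klf1 and Car2, against the 1.74%, 1.83% and 1.58% of all genes given above. The shares at -0.4 or less were 7.41%, 5.56% and 3.70%, against 2.17%, 2.15% and 1.97% of all genes. The pathway list was drawn up with earlier results of these data known, so nothing is read from these shares.

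The 4 at the upper end with Gata1 included other enzymes against peroxide and superoxide. Prdx4, the peroxiredoxin of the endoplasmic reticulum, had a correlation of 0.59, with 102 ± 147 CPM in Gata1 cells and 5.52 ± 13.2 CPM in the others. Sod1, the copper-zinc superoxide dismutase, had 0.58, with 1895 ± 664 CPM in Gata1 cells and 999 ± 510 CPM in the others. Gstm5, a glutathione transferase, had 0.52 and Prdx6, a peroxiredoxin that reduces lipid peroxides, 0.46. Prdx6 averaged 1461 ± 930 CPM in Gata1 cells and 700 ± 550 CPM in the others.

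The 4 at the lower end were Idh1 at -0.58, Gpx3 at -0.47, Prdx5 at -0.44 and Mgst1 at -0.43. With every cell thinned to the lowest total, Gpx3 stood at -0.31 and Mgst1 at -0.399, just short of the limit, while Idh1 and Prdx5 kept -0.53 each. Idh1, the cytosolic isocitrate dehydrogenase that supplies NADPH, averaged 68.2 ± 155 CPM in Gata1 cells and 523 ± 516 CPM in the others, and its correlation with Mpo was 0.77. Mgst1, a microsomal glutathione transferase, averaged 2.11 ± 4.89 CPM and 82.1 ± 173 CPM in the same order. Its mean passed the filter on low values through the cells below the Gata1 limit. Prdx5, a peroxiredoxin of mitochondria and peroxisomes, averaged 27.7 ± 53.3 and 69.1 ± 60.5 CPM. Genes of the same enzyme family thus stood at opposite ends, as with Prdx4 and Prdx6 against Prdx5.

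**Figure D5:**
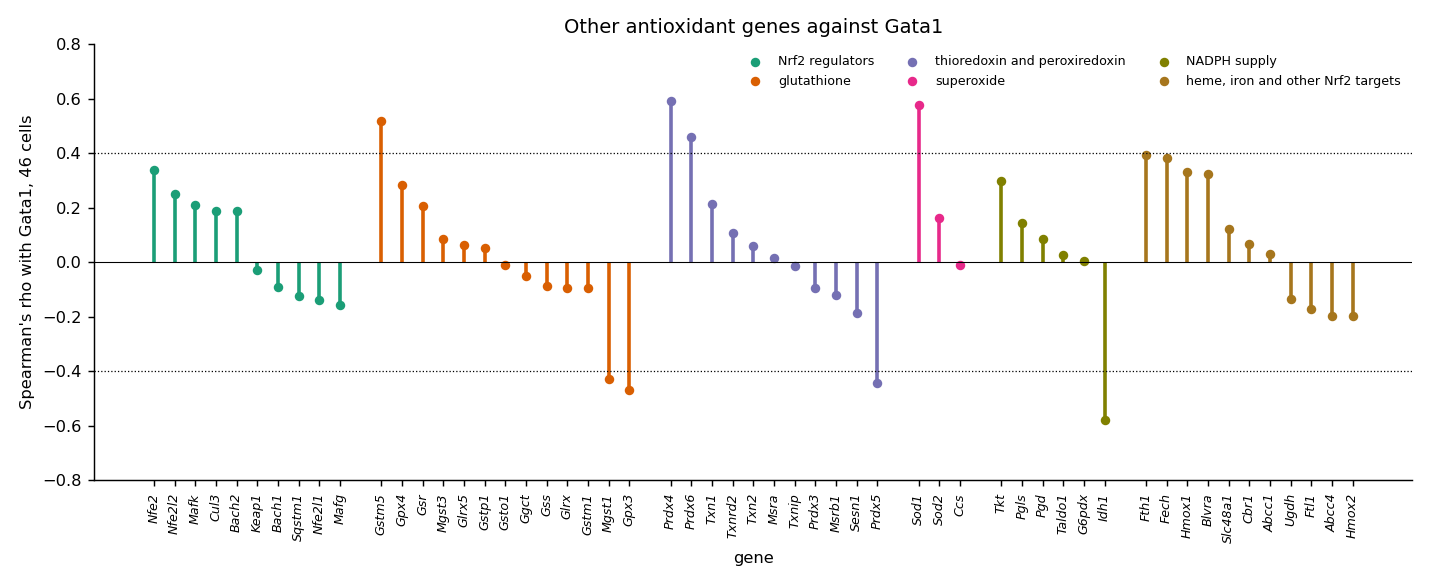
Spearman correlation with Gata1 over 46 cells for the 54 further pathway genes past the filter, grouped and coloured by function, with dotted lines at 0.4 and -0.4. Prdx4, Sod1, Gstm5 and Prdx6 lie above the upper line and Idh1, Gpx3, Prdx5 and Mgst1 below the lower one, and no Nrf2 regulator lies beyond either.

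Depth was examined by thinning each cell to 246007 reads, the lowest total. Blvrb was then read in 22 of 28 Gata1 cells and 5 of 18 others, against 26 and 12 before thinning. Gclm was read in 16 and 3 after thinning and in 21 and 7 before, and Nqo1 in 7 and 0 after and in 8 and 3 before. The Gata1 cells kept the higher share of cells with a read for each of these genes. With the macrophage-like cells counted among the cells below the Gata1 limit, the log2 fold of Blvrb was 1.08 in place of 5.05.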

How the data were processed

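RNA of 48 single cells was measured. Per the submitters' processing notes the authors used TopHat2 2.0.12, featureCounts 1.4.6 and the build mm10. They deposited whole-number counts per gene and a table of log2 values, which equals log2(count divided by a DESeq size factor + 1) within 1e-06. From the deposited counts, CPM was computed with TMM library sizes (edgeR 4.0.16, R 4.3.3), and DESeq2 1.42.0 size factors served as an alternative. SciPy 1.17.1 gave exact intervals.

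All cells are 1 sample, so no test was run. A gene entered the correlations when read in at least 10 of 48 cells at an average of 5 CPM, which 8601 genes did. Of 45 planned pairs, those of Srxn1 could not be formed. Transcripts at least 95% alike over 200 or more bases exist for Prdx1 (Gm21399, Gm7204) and Prdx2 (Tdpx-ps1), have no row in the table and make those counts uncertain. Beside the neutrophil list, the marker lists had these numbers of genes at least 2-fold higher and lower in Gata1 cells: erythroid 11 and 1 of 13, megakaryocyte 5 and 0 of 8, mast cell and basophil 1 and 2 of 6, macrophage 4 and 3 of 9, lymphoid 2 and 1 of 5, hepatoblast 2 and 1 of 5, cell cycle 0 and 0 of 6. The erythroid list holds Gata1 itself, which makes the split, so its higher level there was fixed in advance. Of all filtered genes, 22.7% were at least 2-fold higher and 19.7% at least 2-fold lower in Gata1 cells. The genes, limits and lists were chosen with earlier results of these data known. Named genes were the 10 genes, the 3 set against them, list genes past 0.4 with Gata1, the regulators and 3 nearest neighbours each, of which 1 is not reported here. Calculations were tested on simulated data.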

Additional observations from a re-analysis of the deposited data

How the results depend on the processing

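No correlation past 0.4 and no mean difference past 2-fold turned its sign under the alternatives run. Weaker values did: 27 of 437 correlations, all at most 0.153 in size as reported, and 8 of 80 log2 folds across the Gata1 limit, all at most 0.182. With all 48 cells the log2 fold of Cat was -0.55 in place of 0.13 and that of Prdx1 -0.36 in place of 0.18. That of Txnrd1 was -0.87 in place of 0.05 as a difference of mean log2 values, and that of Gpx1 0.12 in place of -0.14 at a Gata1 limit of 100 CPM. Over the Gata1 cells alone the correlation of Cat with Gata1 was -0.24 in place of 0.15. For Nqo1 the log2 fold of 7.75 was 4.06 at a Gata1 limit of 100 CPM and 1.22 as a difference of mean log2 values. The count of the 9 genes at 0.4 with Car2, 1 as reported, was 2 after thinning, without the 5 cells of lowest total and with Pearson correlation at a pseudocount of 1 or 10, and 3 at a limit of 0.3. Over the Gata1 cells alone, chosen after seeing the data, the counts were 1 with Gata1, which was then Gpx1, 1 with Klf1 and 0 with Car2, and the median with Car2 was 0.129. The median with Klf1 was 0.224 and 0.216 with Pearson correlation at pseudocounts of 1 and 10. With DESeq2 size factors 3 pairs of genes reached 0.4. In the wider pathway, thinning, also added after seeing the data, left 2 genes, Idh1 and Prdx5, at the lower limit with Gata1, 3 at the upper with Klf1 and 1 at the lower with Car2. At a limit of 0.3 there were 9 at the upper with Gata1, 9 at the upper and 5 at the lower with Klf1, and 4 at the lower with Car2. At 100 CPM in place of 10, the count of genes above the limit in every cell was 0 in place of 3. The cause of these shifts was not tested. Of 611 other values under alternatives, 560 stayed within the size set for no change and 51 moved. Some of these alternatives could not move a correlation. A limit of 0.3 and other settings of the filter on low values leave its value as it is. The deposited log2 table ranks cells as DESeq2 size factors do, so it repeats that alternative. The counts of values that stayed or kept their sign are therefore no measure of stability. After thinning no read of Nqo1 was left below the Gata1 limit, which gives no fold.

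No paired analysis was possible because the cells are 1 group. Depth limits the genes with few reads, Srxn1 and Nqo1, for which a cell without a read is not shown to lack the gene. The labels name no animal, chip or batch, so spread between cells cannot be told apart from spread between these. In 1 sample nothing shows how far any value would vary between litters.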
